A study of Homo sapiens with 2 samples.

Results

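The mitochondrial ribosomal protein genes were read out in the human liver cancer cell line PLC, in cells that carried an empty vector (EV) or stably expressed PRSS35. A gene was taken as a member when its name, or 1 of the comma-separated names of its locus, was MRPL or MRPS followed by a number and, for paralogs, a letter from A to C. This gave 77 genes in both libraries, 48 named MRPL for the large and 29 named MRPS for the small subunit, of 26228 gene names in both libraries and of 11118 whose mean FPKM over both libraries reached 1, which are called expressed here. No member was found in only 1 library, and none was listed at 0.

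PRSS35 encodes a serine protease. The authors paired the RNA sequencing with SILAC proteomics of the culture medium, to find secreted proteins that fell in amount but not in transcript. The comparison made here asks which transcripts differ between the libraries. The cells had been infected with a lentiviral pCDH vector, empty or with the PRSS35 coding sequence, and selected with puromycin, so each condition is 1 selected cell population, sequenced as 1 library from bulk RNA. As there is 1 library of each, differences cannot be set against replicates and are given without a p-value, and fewer cells and less RNA per cell cannot be told apart. The FPKM of PRSS35 itself was 0.643 in the EV library (interval 0.445 to 0.841) against 1836 in the PRSS35 library (interval 1759 to 1912). All 11 liver markers on the list checked were above 1.5 FPKM in both libraries, with KRT18 at 2781 in EV and 2315 in PRSS35, although albumin, the defining hepatocyte product, was at only 4.05 in EV and 5.21 in PRSS35 and TTR at 1.56 in EV and 1.61 in PRSS35. Of the leukocyte markers, PTPRC and CD3E were listed at 0 in both libraries and LYZ was at 94.0 in EV and 103.7 in PRSS35, while the 6 fibroblast and endothelial markers were at 1.27 FPKM or lower.

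Mitochondria keep a small genome of their own, and the few proteins it encodes, all core parts of the respiratory chain and of ATP synthase, are made on a dedicated ribosome inside the organelle. Its RNA comes from the mitochondrial genome, whereas every protein of this ribosome is encoded in the nucleus, made in the cytosol and imported. Some of these proteins descend from bacterial ribosomal proteins and the others were added during the evolution of mitochondria, and inherited defects in several of them cause disease of tissues with a high energy demand, liver included.

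FPKM, the measure used throughout, counts sequenced fragments per length of the transcript and per depth of the library. Levels of different genes can therefore be set side by side only as far as the transcript length used for each is right. The levels also differed with the kind of locus, as given below. The interval given with a value is the lower and upper bound that Cufflinks put around it, and it takes in the error of counting and assigning reads inside a single library only. For the members its half-width had a median of 6.02% of the FPKM in EV and 5.90% in PRSS35, and was 15.3% at most in EV and 15.8% in PRSS35. From the bounds, a number of fragments can be implied for each member. It ran from 171 to 14378 in EV, with a median of 1104, and from 160 to 11730 in PRSS35, with a median of 1148. The width of each interval was turned into this number as the square of 2 times the FPKM over its distance to the upper bound. It is called the implied fragments below. As the bounds hold assignment error too, it is not a count of the fragments behind a value. In 6 members in EV and 7 in PRSS35, Cufflinks had joined the gene with a neighbour into 1 locus, so that the value holds the reads of both.

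Some short sequence motifs, which the choice of genes did not use, were in a larger share of member promoters than of promoters of expressed genes. Among 68 members with an entry in the RefSeq promoter table (GRCh38.p14, 250 bases before to 50 after the annotated start), 36 (52.9%) held the core of the ETS site that GABPA binds, CGGAAG, on either strand. The same letters were in 33.7% of 8179 promoters of expressed genes and in 19.9% of all 27305 promoters. The YY1 core ATGGCGG was in 23 member promoters (33.8%), against 11.03% of expressed genes and 5.72% of all promoters. The NRF1 core GCATGCGC was in 6 (8.82%), against 6.003% and 3.27%. GABPA, YY1 and NRF1 are transcription factors known for binding at nuclear genes of mitochondrial proteins, but a match of letters is no sign that a factor was bound in these cells. The last letters of the YY1 core are the first of the ETS core, and in 0 of the member promoters did a hit of the former run into a hit of the latter in this way. The NRF1 core overlapped its own reverse complement in 1 of them. The median GC content was 60.3% in the member promoters, 65.7% in those of expressed genes and 58.3% in all promoters, so the member promoters held the ETS and YY1 letters more often at a lower GC content than expressed genes.

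Of the 68 promoters, 16 held none of the 3 motifs, 42 held 1, 7 held 2 and 3 held all 3. The 3 that held all are shown because they carry every motif counted above, and that of MRPS12 because this gene shares its start region with SARS2, described below. All are on the plus strand of GRCh38.p14, at chr5:154940823-154941122 for MRPL22, chr14:22829637-22829936 for MRPL52, chr6:30617590-30617889 for MRPS18B and chr19:38930694-38930993 for MRPS12. Capitals mark the motifs on either strand, which read GCGCATGC, CTTCCG and CCGCCAT where they lie on the other strand.
MRPL22: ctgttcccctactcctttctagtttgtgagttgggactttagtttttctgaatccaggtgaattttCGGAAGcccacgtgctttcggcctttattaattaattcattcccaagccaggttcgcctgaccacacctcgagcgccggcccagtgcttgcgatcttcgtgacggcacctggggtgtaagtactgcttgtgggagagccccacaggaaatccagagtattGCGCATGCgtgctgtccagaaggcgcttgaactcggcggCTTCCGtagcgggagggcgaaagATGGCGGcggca
MRPL52: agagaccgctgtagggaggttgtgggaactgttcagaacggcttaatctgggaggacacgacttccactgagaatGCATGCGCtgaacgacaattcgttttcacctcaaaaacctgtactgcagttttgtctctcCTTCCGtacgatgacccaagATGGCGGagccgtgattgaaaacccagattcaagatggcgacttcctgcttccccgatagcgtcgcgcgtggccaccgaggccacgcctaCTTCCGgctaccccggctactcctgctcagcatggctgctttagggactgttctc
MRPS18B: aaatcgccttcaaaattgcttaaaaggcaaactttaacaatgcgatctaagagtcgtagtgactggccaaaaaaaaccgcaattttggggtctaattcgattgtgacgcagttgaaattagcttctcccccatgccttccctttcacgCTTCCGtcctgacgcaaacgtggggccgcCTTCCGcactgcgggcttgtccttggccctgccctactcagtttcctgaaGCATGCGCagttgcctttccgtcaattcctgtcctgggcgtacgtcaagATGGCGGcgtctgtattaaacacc
MRPS12: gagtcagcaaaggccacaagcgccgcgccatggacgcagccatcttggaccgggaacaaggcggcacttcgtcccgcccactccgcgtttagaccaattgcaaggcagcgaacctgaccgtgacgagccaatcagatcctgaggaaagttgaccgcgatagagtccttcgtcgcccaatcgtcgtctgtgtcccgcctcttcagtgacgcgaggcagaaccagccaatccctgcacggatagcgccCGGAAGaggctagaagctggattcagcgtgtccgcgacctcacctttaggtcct

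In MRPL22, counted from the first base of the window, ETS letters began at positions 67 and 266, NRF1 letters at 227 and YY1 letters at 289. In MRPL52 they began at 136 and 246 for ETS, at 76 for NRF1 and at 156 for YY1. In MRPS18B the ETS letters began at 149 and 178, the NRF1 letters at 228 and the YY1 letters at 277. The 3 promoters thus each held 2 ETS cores and 1 of each other motif, at different places. MRPS12 had a single ETS core, beginning at position 247, next to the annotated start. Members with an ETS core had a median FPKM of 120.1 in EV and 137.0 in PRSS35, those without one of 39.8 in EV and 50.3 in PRSS35, which is a description over 36 and 32 genes and was not tested. For the other motifs the levels were the other way round. Members with a YY1 core had a median of 48.6 in EV and 45.3 in PRSS35, those without one of 88.8 in EV and 102.1 in PRSS35. Those with an NRF1 core, 6 in all, had a median of 40.9 in EV and 50.1 in PRSS35, those without one of 82.5 in EV and 91.5 in PRSS35. The median log2 changes between the libraries, on the scale explained below, were -0.09 with and 0.03 without the ETS core, -0.06 with and 0 without the YY1 core, and -0.14 with and -0.03 without the NRF1 core.

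The mitochondrial ribosomal protein genes were expressed well above most genes in both libraries. Their median FPKM was 66.5 in EV and 77.8 in PRSS35, which lies at percentile 81.7 of expressed genes in EV and 83.4 in PRSS35, where the median of all expressed genes was 10.1 in EV and 10.8 in PRSS35. Other genes with short transcripts were at such levels as well. The 1012 other expressed genes with a transcript no longer than the member median had a median of 82.8 in EV and 88.8 in PRSS35. All 77 members had a mean FPKM of at least 5. Although most proteins of a ribosome are present once per particle, the transcript levels were far from equal, and ran from 5.71 to 1435 FPKM in EV and from 4.88 to 1184 in PRSS35, a range of 251.1-fold and 242.9-fold. In EV 33 members were above 100 FPKM and 7 under 10, and in PRSS35 35 were above 100 and 7 under 10. The 10 highest members held 55.2% of the summed FPKM of all 77 in EV and 51.3% in PRSS35.

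MRPL41, a mitochondrion-specific protein of the large subunit, had the highest level, at 1435 FPKM (interval 1411 to 1459) in EV and 1184 (interval 1162 to 1206) in PRSS35. It was followed by 2 joined loci. That of MRPS24, joined with URGCP and the read-through URGCP-MRPS24, was at 1189 in EV and 1069 in PRSS35. That of MRPL12, joined with HGS and SLC25A10, was at 1067 in EV and 901 in PRSS35. MRPL12 forms the flexible stalk that recruits translation factors and is also known to bind the mitochondrial RNA polymerase, but its share of the locus cannot be read from these values.

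Of the genes in a locus of their own, MRPS34, a mitochondrion-specific protein of the small subunit, came next, at 695 (interval 664 to 725) in EV and 626 (interval 598 to 654) in PRSS35. MRPS12, the counterpart of the bacterial protein at the decoding site in which streptomycin resistance arises, was at 591 (interval 571 to 611) in EV and 456 (interval 440 to 471) in PRSS35. MRPL23, whose bacterial relative lies at the mouth of the exit tunnel, was at 516 (interval 491 to 540) in EV and 462 (interval 439 to 484) in PRSS35. In PRSS35 the intervals of MRPS12 and MRPL23 overlapped, so that their order there is not set beyond the bounds, whereas in EV they were apart.

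MRPL54, of the large subunit, was at 487 (interval 463 to 511) in EV, where it overlapped MRPL23, and at 324 (interval 307 to 341) in PRSS35. MRPL4, whose bacterial relative lines the exit tunnel, was at 389 in EV and 350 in PRSS35. MRPL28 was at 397 in EV and 326 in PRSS35, and its interval overlapped that of MRPL4 in EV. The remaining gene of the 10 with the highest mean, MRPL52, was at 149 in EV and at 621 in PRSS35 and is described below. In all, 9 genes were in the top 10 of both libraries, with MRPL37 the further one in EV and MRPL52 in PRSS35.

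At the other end, the 5 lowest mean levels were those of MRPS31, MRPL42, MRPL1, MRPS36 and MRPL47. MRPS31, of the small subunit, was at 5.71 (interval 4.88 to 6.55) in EV and 5.45 (interval 4.63 to 6.27) in PRSS35. MRPL42 was at 6.33 (interval 5.76 to 6.89) in EV and 4.88 (interval 4.39 to 5.37) in PRSS35. MRPL1, whose bacterial relative forms the stalk beside the exit site for tRNA, was at 7.52 in EV and 6.37 in PRSS35. The intervals of MRPS31 and MRPL42 overlapped in each library, so neither can be called the lowest beyond its bounds. MRPL47 was at 8.27 in EV and 6.23 in PRSS35. MRPS36 was at 7.55 in EV and 6.44 in PRSS35, and is a member by name only, since its product is now known as a component of the 2-oxoglutarate dehydrogenase complex and no longer as a ribosomal protein.

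The order of the levels was much alike in the 2 libraries, with a Spearman correlation of 0.977 across the 77 genes and of 0.924 across all expressed genes. These are correlations across genes, which are not independent replicates, and the points share transcript length and, in part, the assembled gene models. Transcript length went along with the level. The canonical GENCODE transcript of the members was short, with a median of 1260 bases and a range of 496 to 15557, against a median of 3041 over 9598 expressed genes. Across the 70 members in no joined locus, length and FPKM had a Spearman correlation of -0.59 in EV and -0.56 in PRSS35, against -0.43 in both libraries across expressed genes.

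Between the libraries the members as a group differed little. Each change is the log2 ratio of FPKM + 1 in PRSS35 to FPKM + 1 in EV, which makes the change of genes at a low level look smaller. The median change was -0.04, the middle 50% of the genes lay between -0.21 and 0.14, 35 were above 0 and 41 below, and MRPL57 had the same FPKM of 30.5 in both. The median over all expressed genes was 0.06. Of the 77, 71 (92.2%) changed by less than 0.5 in either direction, against 88.0% of expressed genes. MRPS25 and MRPL52, 2 members in all (2.60%), were higher by 2-fold or more in PRSS35, where 2.73% of the 11118 expressed genes were. No member was lower by 2-fold or more, where 2.48% of expressed genes were, so each count lay within 2 genes of the background.

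By the deposited bounds, 15 members (19.5%) had an interval in PRSS35 above that in EV, where 25.1% of expressed genes did. Another 24 members (31.2%) had it below, where 15.5% of expressed genes did, and for 38 the intervals overlapped. Other genes at a high level split in the same direction. Of the 1963 other expressed genes at or above the median of the members' mean FPKM, 70.1, 26.7% lay above and 34.8% below, with a median change of -0.03. Of the 1012 other expressed genes with a transcript no longer than the member median, 21.2% lay above and 25.3% below. The split also moved with the scaling. With each library divided by its summed FPKM over named loci, 18 members lay above and 18 below, against 30.2% and 13.0% of expressed genes. With the PRSS35 values divided by the median fold of expressed genes, it was 12 above and 30 below, against 18.8% and 20.3%. Signs moved most when each library was divided by its summed FPKM over every locus, named or not, which lifted the median of expressed genes to 0.68 and that of the members to 0.66. Then 75 members were above 0 and 2 below, and 39 changed sign, 22 of them with separate intervals, so the directions given below hold for FPKM as deposited.

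MRPS25, a mitochondrion-specific protein of the small subunit on chromosome 3 of hg19 from 15090019 to 15106816 in EV, had the largest change, with 10.9 FPKM (interval 10.2 to 11.6) in EV and 60.8 (interval 55.6 to 66.0) in PRSS35. The intervals were far apart and the log2 change was 2.38. The implied fragments went the other way, from 894 in EV to 545 in PRSS35, so that 1 implied fragment stood for 9.15 times as much FPKM in PRSS35. In EV the locus carried the identifier of the annotation, and in PRSS35 that of a newly assembled locus, with an end at 15106825.

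MRPL52, a mitochondrion-specific protein of the large subunit on chromosome 14 from 23299092 to 23304246, was at 149 FPKM (interval 143 to 155) in EV and 621 (interval 576 to 666) in PRSS35, a log2 change of 2.05. It moved from rank 25 to rank 5 among the members. Its implied fragments were 2207 in EV and 776 in PRSS35, and the FPKM per implied fragment was 11.9 times as high in PRSS35. The locus was an assembled one with the same coordinates in both libraries. Both members past 2-fold thus had more FPKM on fewer implied fragments.

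FPKM per implied fragment depends on the transcript length that Cufflinks used and on the assignment error in its bounds, and a change in it therefore bears on how the value of a locus was estimated. Of the 77 members, 15 (19.5%) differed in it by over 1.2-fold between the libraries, against 27.7% of 10903 expressed genes above 0 in both. They were MRPL14, MRPL17, MRPL19, MRPL22, MRPL30, MRPL35, MRPL37, MRPL50, MRPL52, MRPL54, MRPS5, MRPS12, MRPS18A, MRPS18B and MRPS25, and the 7 members with the largest changes in either direction were all among them. The changes of the other 62 ran from -0.42 to 0.43, with 0 past 2-fold, and for 12 of them the interval in PRSS35 was above and for 16 below that in EV. Of 7885 expressed genes held to the same limit, 20 were higher and 15 lower by 2-fold, 22.8% had the interval above and 11.9% below. Over all expressed genes above 0 in both libraries, 329 of the 364 past 2-fold (90.4%) were beyond the 1.2-fold limit. Its part in the changes of MRPS25 and MRPL52 was not tested.

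The kind of locus went along with this. In 21 members the locus was annotated in both libraries, and there the FPKM per implied fragment had a ratio of 0.957 to 1.08 with a median of 0.996, and the changes ran from -0.36 to 0.43. In 43 it was assembled in both, with ratios from 0.619 to 11.9, in 7 in EV only, from 0.401 to 1.02, and in 6 in PRSS35 only, from 0.818 to 9.15. The coordinates of the locus were the same in both libraries for 63 members. Levels differed with the kind of locus as well. Members annotated in both had a median FPKM of 21.0 in EV and 24.2 in PRSS35. Those assembled in both had 137.7 in EV and 130.7 in PRSS35. For expressed genes the EV medians were 5.04 annotated in both and 16.1 assembled in both. MRPS31, MRPL42, MRPL1, MRPS36 and MRPL47, the lowest members, were all annotated in both, as was MRPL41, the highest. Comparisons of levels between genes carry this limit.

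Among the other members higher in PRSS35, MRPL17, of the large subunit and conserved from bacteria, was at 33.2 FPKM (interval 31.2 to 35.2) in EV and 62.8 (interval 58.4 to 67.2) in PRSS35, a log2 change of 0.90 with an FPKM per implied fragment 2.61 times as high. The next 3 were annotated in both libraries. MRPS27, an RNA-binding protein of the small subunit with pentatricopeptide repeats, was at 17.7 (interval 16.5 to 18.9) in EV and 24.2 (interval 22.8 to 25.7) in PRSS35. MRPL44, which has a ribonuclease III-like fold, was at 21.0 (interval 19.7 to 22.4) in EV and 28.5 (interval 26.9 to 30.04) in PRSS35. MRPS14 was at 12.7 (interval 11.6 to 13.7) in EV and 16.7 (interval 15.4 to 17.99) in PRSS35. For these 3 the intervals did not overlap and the log2 changes were 0.43, 0.42 and 0.37.

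The largest changes in the other direction were smaller in size. MRPL35 was at 9.90 (interval 8.38 to 11.4) in EV and 5.23 (interval 4.53 to 5.92) in PRSS35, a log2 change of -0.81, with an FPKM per implied fragment at 0.401 of that in EV. MRPL22, whose bacterial relative lines the exit tunnel and whose promoter is shown above, was at 28.9 (interval 25.8 to 32.1) in EV and 16.6 (interval 14.7 to 18.6) in PRSS35, a change of -0.76 with a ratio of 0.640. MRPL54, given above among the highest, changed by -0.59 with a ratio of 0.771. MRPL30 was at 9.42 in EV and 6.46 in PRSS35, a change of -0.48 with a ratio of 0.648. All 4 had separate intervals, and for all 4 the FPKM per implied fragment differed by over 1.2-fold.

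MRPL3, whose bacterial relative reaches towards the peptidyl transferase centre, was at 46.8 (interval 44.2 to 49.5) in EV and 34.7 (interval 32.6 to 36.8) in PRSS35, a change of -0.42. MRPL3 stayed within the 1.2-fold limit. MRPS12 changed by -0.38 with a ratio of 0.818, and both had separate intervals. Of the genes with the highest levels, MRPL41 changed by -0.28, MRPL23 by -0.16 and MRPS34 by -0.15, with separate intervals for each.

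By role, 50 members were counted to the large subunit and 26 to the small one, with MRPS30 and MRPS18A placed in the large subunit, where structures of the mitochondrial ribosome locate them, and MRPS36 in neither. Large subunit genes had a median FPKM of 86.3 in EV and 95.0 in PRSS35, and small subunit genes of 52.2 and 57.7. The median change was -0.09 for the large and 0.07 for the small subunit. In the large subunit 8 genes (16%) had the higher interval in PRSS35 and 19 (38%) the lower one, and in the small subunit 7 (26.9%) had the higher and 5 (19.2%) the lower, against 25.1% and 15.5% of all expressed genes and 26.7% and 34.8% of the others at or above the median level of the members. The ranges of the changes overlapped widely, from -0.81 to 2.05 in the large and from -0.38 to 2.38 in the small subunit, and no test of the difference is possible with 1 library each.

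Among conserved proteins, the 29 of the large subunit had a median change of -0.11 and the 16 of the small subunit of 0.09. Among mitochondrion-specific ones, the 21 of the large subunit had a median of -0.06 and the 10 of the small subunit of 0.01. Taken across subunits, the 45 conserved and 31 mitochondrion-specific genes had medians of -0.02 and -0.05, which lay closer together than those of the subunits.

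The 3 MRPS18 genes are paralogs of which A lies in the large and B and C in the small subunit, so their levels can be compared within a family. MRPS18A was at 198 (interval 189 to 207) in EV and 168 (interval 161 to 176) in PRSS35, a change of -0.23. MRPS18B was at 110 (interval 107 to 113) in EV and 115 (interval 109 to 121) in PRSS35, a change of 0.06 with overlapping intervals. MRPS18C was at 23.1 (interval 20.9 to 25.2) in EV and 18.1 (interval 16.2 to 19.9) in PRSS35, a change of -0.33. The order A, B, C held in both libraries with intervals apart. For MRPS18A and MRPS18B the FPKM per implied fragment differed by over 1.2-fold, with ratios of 0.779 and 2.93. MRPS30, the other protein named for the small subunit but located in the large one, was at 29.1 (interval 26.9 to 31.3) in EV and 31.4 (interval 29.3 to 33.5) in PRSS35.

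The changes of the 7 members in joined loci ran from -0.28 to 0.31. For 5 of them the intervals were separate, in 2 with the higher and in 3 with the lower one in PRSS35. Over all expressed genes, 25.1% had the higher and 15.5% the lower interval. Besides MRPS24 at -0.15 and MRPL12 at -0.24, the joined members were MRPL55 with C1orf35, at 305 FPKM in EV and 250.4 in PRSS35, MRPL53 with CCDC142, at 268 in EV and 280.1 in PRSS35, and MRPS26 with GNRH2, at 263 in EV and 278 in PRSS35. MRPS6 with SLC5A3 was at 100.5 in EV and 118 in PRSS35. MRPS16 was alone in EV, at 62.5, and joined with CFAP70 in PRSS35, at 77.8, so its change of 0.31 compares loci of different extent. Without joined loci the median change was -0.05 over 70 members, and 13 had the higher and 21 the lower interval in PRSS35. Of the 9697 expressed genes left in that setting, 24.8% had the higher and 14.0% the lower interval.

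The members were spread over 21 chromosomes, with 8 each on chromosomes 1 and 2, 7 each on 11 and 17, and 6 on chromosome 6, and none on chromosomes 18 and X. In the GENCODE annotation, 26 members (33.8%) had a neighbour on the other strand starting within 1000 bases in the opposite direction, against 13.2% of 9598 expressed genes. Such head-to-head genes share the stretch of DNA that holds both promoters. MRPL46 and MRPS11 are such a pair of members, with 320 bases between the starts. MRPL46 was at 62.6 (interval 58.4 to 66.9) in EV and 55.2 (interval 51.4 to 59.1) in PRSS35, and MRPS11 at 102 (interval 96.4 to 107) in EV and 119 (interval 113 to 125) in PRSS35. The changes of this pair had opposite signs, -0.18 and 0.22, with overlapping intervals for MRPL46.

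MRPS12 starts 181 bases from SARS2, which encodes the mitochondrial seryl-tRNA synthetase. SARS2 was at 65.5 FPKM in EV and 50.3 in PRSS35, a change of -0.37 beside -0.38 for MRPS12. The 2 levels thus differed by about the same factor in each library. MRPL49 starts 187 bases from FAU, a source of cytosolic ribosomal protein, which was at 4035 in EV and 3566 in PRSS35, while MRPL49 was at 151 in EV and 167 in PRSS35. Across the 15 pairs with both genes expressed and above 0, 9 had changes of the same sign, with a Spearman correlation of 0.13, and the member had the higher FPKM in 12 pairs in EV and 11 in PRSS35. For MRPL46 and MRPS11, both members, MRPL46 was counted as the member and MRPS11 as its neighbour. The head-to-head pairs named here, and MRPL57 above, were chosen after their values were seen.

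Other genes of the same pathway also had small median changes, while the split of the intervals differed between the lists. Of 9 listed names of mitochondrial ribosome subunits that are called otherwise, 6 were found in both libraries. None of the 6 passed 2-fold and the median change was -0.08. GADD45GIP1 was at 832 in EV and 665 in PRSS35, AURKAIP1 at 605 in EV and 577 in PRSS35 and CHCHD1 at 73.6 in EV and 82.1 in PRSS35. The first 2 were thus at the level of the highest members. The FPKM per implied fragment in PRSS35 was at 0.832 of that in EV for GADD45GIP1 and at 0.633 for CHCHD1. The largest change of the 6 was that of PTCD3, named after its value was seen, at 6.20 in EV and 3.39 in PRSS35. Its log2 change was -0.71 with separate intervals, and its FPKM per implied fragment was at 0.294 of that in EV. Of the 6, 1 (16.7%) had the higher and 2 (33.3%) the lower interval in PRSS35, against 25.1% and 15.5% of all expressed genes. Of 21 expressed assembly factors, 0 were higher and 1 lower by 2-fold, with a median of -0.03. In 5 (23.8%) the interval in PRSS35 was the higher and in 4 (19.0%) the lower one. The highest were ERAL1, a GTPase that chaperones the small subunit RNA, at 135 in EV and 125 in PRSS35, MALSU1, at 97.7 in EV and 126 in PRSS35, and NGRN, at 81.5 in EV and 90.1 in PRSS35. The 1 lower was YBEY, named after its value was seen, at 22.3 in EV and listed at 0 in PRSS35.

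Of 14 expressed translation factors, 0 were higher and 1 lower by 2-fold, with a median of 0.02. In 2 (14.3%) the interval in PRSS35 was the higher and in 2 (14.3%) the lower one. Of all expressed genes, 25.1% had the higher and 15.5% the lower interval. TUFM, the elongation factor that brings tRNA to the ribosome, in a locus with MIR4721, was at 529 in EV and 508 in PRSS35, SLIRP at 194 in EV and 151 in PRSS35 and OXA1L, which inserts new proteins into the inner membrane, at 132 in EV and 135 in PRSS35. For OXA1L the FPKM per implied fragment was 1.51 times as high in PRSS35. The 1 lower by 2-fold was the initiation factor MTIF2, at 6.14 in EV and listed at 0 in PRSS35, which was also named after its value was seen. A value of 0 can be a failed estimate, which was not tested, and no fold is given. This holds for YBEY above as well, so both counts of 1 lower rest on such a value. In all, 215 expressed genes were listed at 0 in 1 of the libraries.

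Of 8 expressed genes for transcription and replication of mitochondrial DNA, none passed 2-fold and the median was 0.03. In 1 (12.5%) the interval in PRSS35 was the higher and in 1 (12.5%) the lower one, against 25.1% and 15.5% of all expressed genes. POLRMT, the mitochondrial RNA polymerase, was at 222 in EV and 165 in PRSS35, SSBP1 at 127 in EV and 140 in PRSS35 and TFB2M at 11.4 in EV and 11.7 in PRSS35. For POLRMT the FPKM per implied fragment was 2.05 times as high in PRSS35. Of the 7 expressed regulators of such genes, 1 (14.3%) was higher by 2-fold, against 2.73% of all expressed genes. It was the nuclear receptor ESRRA, which was listed at 0 in EV and at 84.2 in PRSS35. This value of 0 can be a failed estimate as well, and no fold is given. MYC was at 33.3 in EV and 39.6 in PRSS35, with an FPKM per implied fragment 2.13 times as high in PRSS35. The factors whose motifs were counted above were at 6.61 in EV and 6.57 in PRSS35 for NRF1, at 1.80 in EV and 2.05 in PRSS35 for GABPA and at 14.2 in EV and 14.3 in PRSS35 for YY1.

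The proteins of the cytosolic ribosome, which share the function but neither the compartment nor the origin, had a median change of -0.03 over 82 expressed genes, with 3 higher and 3 lower by 2-fold (3.66% each), 20 (24.4%) with the higher and 26 (31.7%) with the lower interval. Their median FPKM was 1571 in EV and 1587 in PRSS35, far above that of the members. Nuclear subunits of respiratory complex I need products of the mitochondrial ribosome as partners. They were taken by name, as the 37 genes called NDUFA, NDUFB, NDUFC, NDUFS or NDUFV and a number, which can differ from the full set of subunits. These had a median change of -0.11, with 2 higher and 2 lower by 2-fold (5.41% each), 9 (24.3%) with the higher and 14 (37.8%) with the lower interval. The lowest value among them was 0 in EV, which can be a failed estimate. Of all expressed genes, 2.73% were higher and 2.48% lower by 2-fold, and 25.1% had the higher and 15.5% the lower interval. Set beside these groups, the median of -0.04 for the mitochondrial ribosomal protein genes lay among them.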

How the data were processed

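RNA of 1 EV and 1 PRSS35 library of PLC cells was sequenced on an Illumina HiSeq2500. The authors aligned reads to hg19 with TopHat2 2.1.0 and assembled and quantified loci with Cufflinks 2.2.1 (the submitters' processing notes name Cuffdiff 2.2.1), and deposited FPKM with lower and upper bounds for each locus. The annotation release is not given in the sources used here. The notes also name a fly build, which was not used. No read counts were used, and the total depth was not estimated.

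Loci off the main chromosomes, on haplotype or unplaced sequences, were left out, among them 6 rows of members, all at 0. FPKM was summed over loci of the same name, and that of a joined locus counted for each of its names. Start coordinates were converted to count from 1. Changes used a pseudocount of 1 FPKM, a mean FPKM of at least 1 and a 2-fold threshold, and the code was tested on simulated data. Alternatives were pseudocounts of 0.1 and 5, scaling by sums, median or upper quartile, the highest locus per name, joined loci or contigs treated otherwise, other FPKM filters, a 1.5-fold threshold and subsets by locus identifier. Lengths and neighbours came from GENCODE v44lift37 on GRCh37, the assembly of hg19, where all 77 members were found, and promoters from RefSeq on GRCh38.p14. Coordinates of the 2 builds were not combined.

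Members and lists were chosen with earlier results of these data known. A marker on the lists checked is not reported here. Named with values were the 10 members with the highest and 5 with the lowest mean FPKM, the 6 largest changes in each direction, joined members, MRPS18 paralogs, members outside the subunit of their name and up to 3 genes with the highest mean FPKM per related list. MRPL46, MRPS11, MRPL49 and MRPL57 fell outside this rule and were named after their values were seen. The scripts ran on Python 3.11.15 with pandas 2.3.3, numpy 2.4.6, matplotlib 3.10.9 and scipy 1.17.1.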

Additional observations from a re-analysis of the deposited data

How the results depend on the processing

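The count of members higher by 2-fold, 2 as reported, was 8 when each library was divided by its FPKM sum over every locus, where the median change was 0.66 beside 0.68 for all expressed genes. That sum was larger in EV by 0.71 on the log2 scale, and over named loci by 0.04, so the shift lies in loci without a gene name. The count was 1 among the 64 members with the same kind of identifier in both libraries. Of expressed genes, 2.91% of the 6494 assembled in both and 0.714% of the 2382 annotated in both were higher by 2-fold. In alternatives chosen after seeing the data, fewer genes were counted. The count of members was then 0 among the 62 with FPKM per implied fragment within 1.2-fold and 0 among the 21 annotated in both. Of the 7885 expressed genes above 0 in both and within 1.2-fold, 0.254% were higher by 2-fold. At 1.5-fold 3 members were higher and 3 lower. Under the other alternatives, the counts stayed at 2 higher and 0 lower, and the median change ran from -0.11 with upper quartile scaling to -0.00114 with scaling over named loci. The counts over all expressed genes, 303 higher and 276 lower, became 1254 and 184 with the sum over all loci, 192 and 162 with a pseudocount of 5 FPKM, 581 and 475 at 1.5-fold and 183 and 184 without joined loci. Of 37 named members, all 37 moved beyond their interval with the sum over every locus and 20 changed sign, MRPL41 from -0.28 to 0.43 and MRPL12 from -0.24 to 0.47 among them. Under each other alternative 3 at most moved beyond it, and only upper quartile scaling changed the sign of any, 2 with overlapping intervals. MRPS25 and MRPL52 changed sign under none. No paired analysis was possible because there is only 1 library of each kind. The intervals leave out variation between cultures, which was not measured.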

Other observations

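Transcripts named after the family that the choice of genes left out were low, apart from 1 joined locus. The antisense MRPL23-AS1 was at 0.0586 FPKM in EV and 0.0195 in PRSS35, and the pseudogene MRPL45P2 at 0.644 in EV and 0.417 in PRSS35. MRPS31P5 was at 0.332 in EV and 0.364 in PRSS35, and MRPL42P5, in a locus joined with C15orf57, at 9.46 in EV and 10.6 in PRSS35. Reads of a pseudogene and of its parent gene can be split by the aligner, so the low values of MRPS31 and MRPL42 carry this uncertainty as well.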
